A study of Rattus norvegicus with 15 samples.

Results

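The RNAs recovered with an antibody to hnRNP A2 from oligodendrocytes treated with oligomeric amyloid-β were set against the RNAs recovered by control IgG. The comparison takes 6 of the 15 sequencing libraries of the series, chosen by their titles: amyloid-β hnRNP A2 immunoprecipitations 2, 3 and 4, and IgG immunoprecipitations 2, 3 and 4. The question is which RNAs are enriched by the antibody over what the procedure recovers without it. Because the count files give Ensembl identifiers that could not be paired with gene names (0 of 30560 matched), RNAs are described here by level, by class and, for 4 of them, by identifier. For the same reason the oligodendrocyte and other cell type markers were not analysed here, and the label of the culture was not checked against them.

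hnRNP A2 is a nuclear and cytoplasmic RNA-binding protein. In oligodendrocytes, the myelinating cells of the central nervous system, it is known for binding a short response element in certain messenger RNAs, among them the mRNA of myelin basic protein, and for packing them into granules that travel along microtubules to the processes, where they are translated. An immunoprecipitation with non-immune IgG recovers RNA that sticks to beads, antibody or tube, and so serves as the background for such an experiment. The design text of the series names this purpose, the hnRNP A2 interactome.

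All libraries came from primary cultures of Sprague-Dawley rat forebrain cortex taken at postnatal days 0 to 2. Oligodendrocyte precursors were shaken off mixed glial cultures and kept for 3 days in a defined maturation medium. The 3 amyloid-β hnRNP A2 libraries are labelled Amyloid-B, and the 3 control hnRNP A2 libraries, used here to estimate the spread and as a second treatment group, are labelled Control. The 3 IgG libraries are labelled as an amyloid-β and control pool, while the names of their files carry the mark of amyloid-β. Replicates are called biological in the design text. How much amyloid-β the cultures received, and for how long, is not stated in the labels. Libraries were started from 4 to 10 ng of RNA, so their counts show the makeup of the recovered RNA and not how much was recovered. A gene that takes a smaller share with hnRNP A2 may therefore still have been recovered in a larger amount.

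The IgG libraries were far shallower than the hnRNP A2 libraries. In amyloid-β hnRNP A2 replicates 2, 3 and 4, gene counts totalled 31610443, 33168494 and 28056346. The totals were 81463, 4096829 and 1895870 in IgG replicates 2, 3 and 4. Genes with at least 10 counts numbered 14993 to 15026 in the amyloid-β hnRNP A2 libraries, 11853 and 10246 in IgG replicates 3 and 4, and 1773 in IgG replicate 2. A count of 0 is compatible with up to 3 counts, and in CPM (counts relative to the scaled library size) this limit was 33.8 CPM in IgG replicate 2, 0.785 CPM in IgG replicate 3 and 1.72 CPM in IgG replicate 4. In the amyloid-β hnRNP A2 libraries it was 0.0885 to 0.107 CPM. These limits cover counting error only, since reads without molecular identifiers are not independent molecules.

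**Figure D1:**
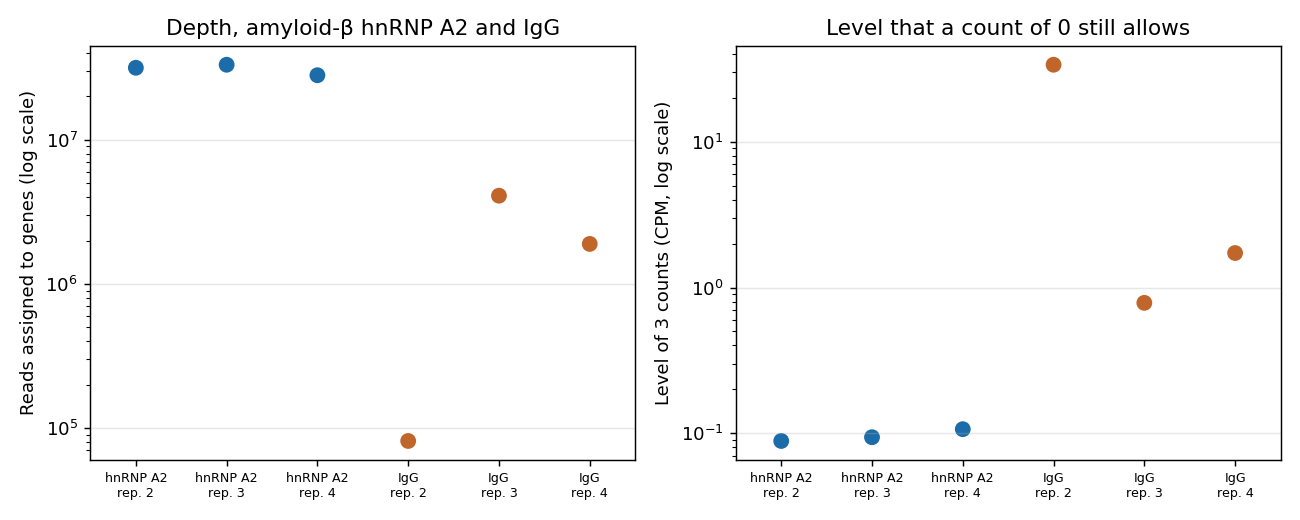
Reads assigned to genes (left, log scale) and the level of 3 counts in CPM (right, log scale) in each of the 3 amyloid-β hnRNP A2 libraries (blue) and 3 IgG libraries (orange), 1 point per library. IgG replicate 2, with 81463 reads, reaches 3 counts at 33.8 CPM, while the other IgG libraries do so at 0.785 and 1.72 CPM.

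At a mean of more than 33.8 CPM with hnRNP A2, 5437 of the 15304 genes tested (35.5%) lay above the detection limit of IgG replicate 2. A gene at a level 2-fold lower in IgG needs 67.6 CPM with hnRNP A2 to be expected at 3 counts in that library, and 3265 genes reached this. A gene that takes a larger share of the IgG libraries can be counted there at lower hnRNP A2 levels, and this library enters the IgG mean of every gene. In IgG replicate 2, 6524 of the tested genes had 0 counts, against 450 in replicate 3 and 1096 in replicate 4.

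By makeup, the amyloid-β hnRNP A2 libraries held more genes at equal depth than the IgG libraries. In 80000 counts drawn from a library, 9462 ± 142 genes (SD, n = 3) would be detected with hnRNP A2 and 9022 ± 183 (SD, n = 3) with IgG, without overlap (2-sided exact permutation test, p = 0.1, the smallest that 3 libraries against 3 allow; adjusted p = 0.3 over 3 measures). The share of counts in the 10 most abundant genes was 7.75% ± 1.23 (SD, n = 3) with hnRNP A2 and 11.2% ± 4.57 (SD, n = 3) with IgG, where replicate 3 had 7.10% and overlapped the former group (p = 0.3 by the exact permutation test, adjusted p = 0.45). Uniquely aligned reads outside annotated features made up 22.5% ± 3.22 (SD, n = 3) and 20.2% ± 1.82 (SD, n = 3), and these groups overlapped (p = 0.5 by the exact permutation test). Records not uniquely aligned were 28.4%, 15.5% and 13.9% of aligned records in amyloid-β hnRNP A2 replicates 2, 3 and 4. In IgG replicates 2, 3 and 4 they were 75.7%, 25.5% and 54.3%, and this difference was not tested.

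Of the 15304 genes tested, 690 were higher with hnRNP A2 than with IgG (4.51% of genes tested) and 463 were lower (3.03%), together 7.53%, by edgeR's quasi-likelihood test at an adjusted p of 0.05 and with no block. With the replicate number as a block, which compares libraries within their number, the same test called 2728 higher (17.8%) and 2235 lower (14.6%). The values below are those without the block unless it is named. The median log2 fold change was 1.27 for the higher genes, which is 2.41-fold, with quartiles at 1.06 and 1.52. For the lower genes it was -1.24, which is 2.36-fold lower. Among called genes the lower ones reached further: 116 of the 463 and 67 of the 690 changed more than 4-fold. Of all 15304 genes tested 643 did so, 460 of them not called. Over all genes tested the median log2 fold change was 0.07, so the scaling placed the typical gene close to no change.

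**Figure D2:**
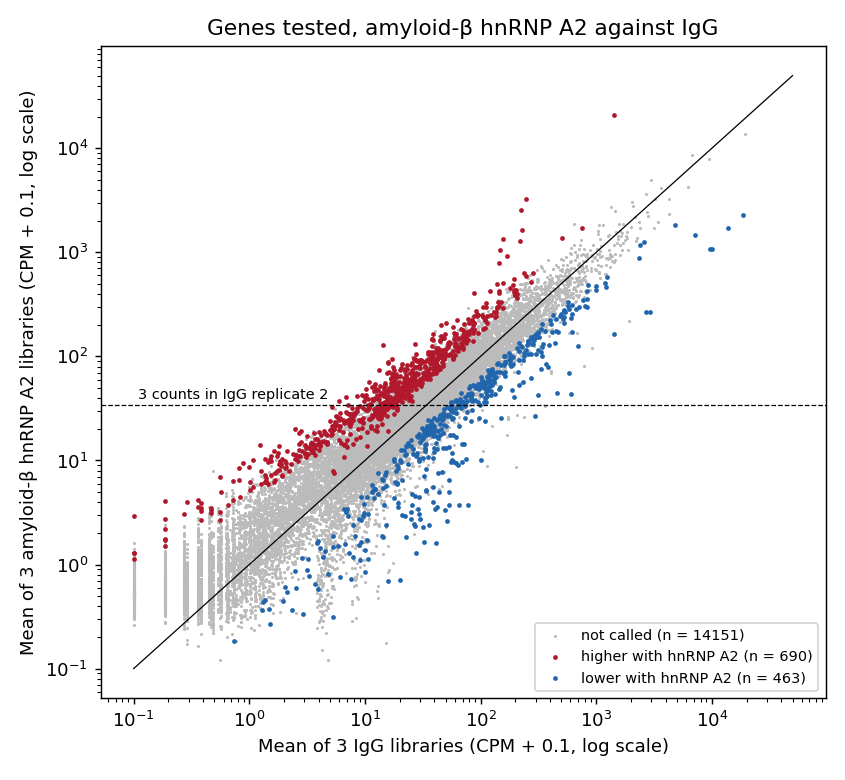
Mean level in the 3 amyloid-β hnRNP A2 libraries (vertical) against the mean in the 3 IgG libraries (horizontal), in CPM plus 0.1 on log scales, 1 point per gene tested. Red points are the 690 higher genes, blue points the 463 lower genes and grey points the 14151 not called, with a solid line at equality. The dashed line marks 33.8 CPM, the level of 3 counts in IgG replicate 2, and 436 of the red points lie above it.

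In the libraries that picked them, the higher and lower genes lay at different levels, which the choice itself partly fixes. With hnRNP A2 the higher genes had a median of 47.4 CPM, against 18.4 CPM with IgG. The lower genes had a median of 26.2 CPM with hnRNP A2 and 57.7 CPM with IgG. The 690 higher genes together held 8.03%, 8.77% and 10.2% of gene counts in amyloid-β hnRNP A2 replicates 2, 3 and 4, against 2.26%, 3.05% and 2.12% in IgG replicates 2, 3 and 4. The 463 lower genes held 4.62%, 3.53% and 3.82% with hnRNP A2, and 19.8%, 7.58% and 14.0% with IgG. So the lower genes took up a share of the IgG libraries that varied from replicate to replicate, while the higher genes' share of them varied less. In IgG replicate 2, the 3 lower genes with the highest IgG means made up 44.2% of the lower genes' counts, against 26.1% in replicate 4 and 9.07% in replicate 3. These levels and shares describe genes that were chosen from the same libraries and lend the calls no support.

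Groups that did not overlap were more common than calls. For 3247 genes (21.2% of those tested) every amyloid-β hnRNP A2 library lay above every IgG library, and for 1267 (8.28%) every one lay below. Of the 690 higher genes 663 did not overlap, and of the 463 lower genes 371 did not. A gene at 0 in the shallow IgG replicate 2 cannot count among those below, so depth sets part of this ordering. Of the higher genes, 241 had 0 counts in IgG replicate 2 and 482 had under 3, but 15 had 0 in replicate 4 and 5 had 0 in replicate 3. Of the 463 lower genes, 141 had under 3 counts in IgG replicate 2.

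A level of 0 in all 3 IgG libraries was found for 215 of the genes tested. The 3 libraries together detect 0.531 CPM (3 counts over the group), and 134 of the 215 were at or under that level with hnRNP A2, so no fold can be given for them. The highest of the 215 reached 2.84 CPM with hnRNP A2, at least 5.35-fold higher than IgG. In this class 4 genes were called, all higher, at 1.04 to 2.84 CPM. RNAs present with hnRNP A2 and missing from IgG at this depth were thus all low in level.

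ENSRNOG00000034234 had the largest gain among genes with at least 10 CPM and no overlap. Its level was 13419, 21699.7 and 27981 CPM in amyloid-β hnRNP A2 replicates 2, 3 and 4, against 1172, 2064 and 1079 CPM in IgG replicates 2, 3 and 4. Each hnRNP A2 library lay above each IgG library, and even the shallow IgG replicate 2 held 104 counts of this gene. The difference was 14.5-fold (log2 fold change 3.86, 95% interval 2.90 to 4.83, edgeR adjusted p = 0.00669). It lost the call without IgG replicate 4 (log2 fold change 3.71, edgeR adjusted p = 0.0683).

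ENSRNOG00000030700 came next, at 1735, 3548 and 4586 CPM with hnRNP A2 and 169, 284 and 285 CPM with IgG. As for the first gene, replicate 2 was the lowest hnRNP A2 library and replicate 4 the highest. The gene was 12.8-fold higher with hnRNP A2 (log2 fold change 3.68, SE 0.45, edgeR adjusted p = 0.00719). The call was lost without IgG replicate 4 (edgeR adjusted p = 0.0782) and without amyloid-β hnRNP A2 replicate 4 (edgeR adjusted p = 0.0539), with log2 fold changes of 3.80 and 3.38.

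Both of these RNAs are abundant in the cells' total RNA. Scaled over all 15 libraries, ENSRNOG00000034234 stood at 14592, 7419.6 and 12583 CPM in amyloid-β input replicates 2, 3 and 4, against 1018, 1725 and 925 CPM in the IgG libraries on the same scale. Its levels with hnRNP A2 were 11492, 18617 and 24057.5 CPM on that scale and overlapped the input libraries. ENSRNOG00000030700 stood at 4465, 2625 and 4267 CPM in amyloid-β input and at 147, 238 and 245 CPM in IgG. With hnRNP A2 it stood at 1486, 3044 and 3943 CPM on that scale, which overlapped the input libraries. The IgG libraries lay below both the input and the hnRNP A2 libraries for both genes.

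Among genes that were lower with hnRNP A2, the 2 largest losses under the rule for named genes had IgG means of 27.5 and 19.9 CPM. ENSRNOG00000051703 was at 1.86, 0.156 and 1.56 CPM in amyloid-β hnRNP A2 replicates 2, 3 and 4 (63, 5 and 44 counts) and at 22.5, 4.19 and 55.8 CPM in IgG replicates 2, 3 and 4 (2, 16 and 97 counts). Replicate 3 was the lowest library of both groups, and the groups did not overlap. The log2 fold change was -4.55 (SE 1.11, 95% interval -6.98 to -2.13, edgeR adjusted p = 0.0340). The call was lost without IgG replicate 4, where the log2 fold change was -2.30 (edgeR adjusted p = 0.422), and without control hnRNP A2 replicate 4 or amyloid-β hnRNP A2 replicate 3 or 4 (edgeR adjusted p = 0.0573, 0.0798 and 0.108).

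ENSRNOG00000058179 showed the same order of libraries with hnRNP A2, at 0.914, 0.156 and 0.782 CPM (31, 5 and 22 counts). With IgG it was at 33.8, 2.88 and 23.0 CPM (3, 11 and 40 counts), and replicate 3 was again the lowest. The log2 fold change was -4.54 (SE 0.92, edgeR adjusted p = 0.0223), and it was -3.37 without IgG replicate 4 (edgeR adjusted p = 0.229). Without amyloid-β hnRNP A2 replicate 3 or 4 the edgeR adjusted p was 0.0565 and 0.0859.

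For both lower genes each hnRNP A2 library lay below the input library of its number, and each IgG library above it. On the scale of all 15 libraries ENSRNOG00000051703 was at 18.8, 2.75 and 11.4 CPM in amyloid-β input replicates 2, 3 and 4, at 19.6, 3.50 and 47.8 CPM in IgG and at 1.59, 0.134 and 1.34 CPM with hnRNP A2. ENSRNOG00000058179 was at 10.1, 2.35 and 9.34 CPM in amyloid-β input, at 29.4, 2.40 and 19.7 CPM in IgG and at 0.783, 0.134 and 0.672 CPM with hnRNP A2. The distance of IgG from input varied with the replicate, and the values in IgG replicate 2 rest on 2 and 3 counts. In all 3 kinds of library replicate 3 was the lowest for both genes.

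**Figure D3:**
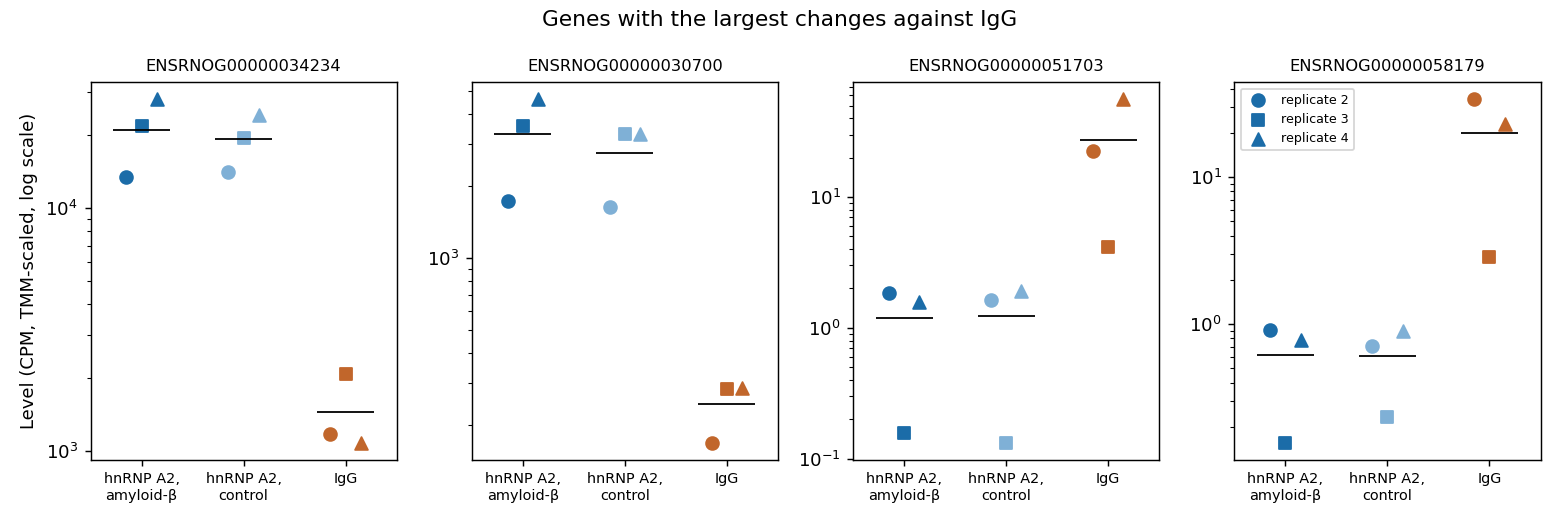
Level in CPM (log scales that differ between panels) of the 2 genes with the largest gain and the 2 with the largest loss against IgG, in 3 amyloid-β hnRNP A2, 3 control hnRNP A2 and 3 IgG libraries. Symbols mark replicates 2, 3 and 4 and bars the group means, such as 21033 CPM for ENSRNOG00000034234 with amyloid-β hnRNP A2 against 1438 CPM with IgG.

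Beyond these 4, the rule for the largest changes was met by 596 higher and 356 lower genes. The 12 largest gains ran from a log2 fold change of 3.86 down to 2.36, with hnRNP A2 means of 12.3 to 21033 CPM. The 12 largest losses ran from -4.55 to -3.48, with IgG means of 15.8 to 609 CPM and hnRNP A2 means of 0.594 to 43.7 CPM. Large gains thus included some of the most abundant RNAs. A gene picked for a large loss against IgG is low with hnRNP A2 by that choice, so those low levels are no separate result. By input level, losses were also found among RNAs above 1000 CPM, as given below.

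Called genes were more abundant in total RNA than the rest. The level in amyloid-β input, from libraries outside the comparison, had a median of 27.9 CPM for the higher genes, 19.4 CPM for the lower genes and 12.5 CPM for genes not called. Under 1 CPM in input, 12 of 2604 genes were higher and 48 were lower. From 1 to 10 CPM, 137 of 4239 were higher (3.23%) and 114 lower (2.69%). From 10 to 100 CPM, 440 of 6801 were higher (6.47%) and 239 lower (3.51%), and from 100 to 1000 CPM, 92 of 1596 were higher (5.76%) and 54 lower (3.38%). The median SE of a log2 fold change was 0.89 under 1 CPM, 0.45 from 1 to 10 CPM, 0.28 from 10 to 100 CPM, 0.26 from 100 to 1000 CPM and 0.34 above that. The part of precision in the shares called was not tested.

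The most abundant RNAs of the cell were called most often, in both directions. Above 1000 CPM in amyloid-β input, 9 of 64 genes (14.1%) were higher and 8 (12.5%) lower, against 4.51% and 3.03% of all genes. Their changes were also larger than those of called genes at moderate levels, with a median log2 fold change of 2.90 for the 9 and -2.77 for the 8, against 1.21 and -1.03 for called genes from 10 to 100 CPM. Large changes were not particular to this class: called genes under 1 CPM in input had medians of 3.39 and -2.54. Those from 1 to 10 CPM had 1.56 and -1.72. A call needs a larger change where the SE is larger, and over all 64 genes the median was -0.14. The 9 higher genes held 2.40%, 3.55% and 4.61% of gene counts in amyloid-β hnRNP A2 replicates 2, 3 and 4, against 0.324%, 0.487% and 0.326% in IgG replicates 2, 3 and 4. The 8 lower genes held 1.20%, 0.564% and 0.714% with hnRNP A2 and 11.3%, 1.43% and 5.66% with IgG, where replicate 2 was the highest. None of the 9 and none of the 8 lay higher in control hnRNP A2 than in control input, as ratios of group means. On the log2 scale those ratios ran from -2.52 to -0.05 for the 9 and from -7.51 to -1.66 for the 8. Of the 47 genes of this class that were not called, 5 lay higher in control hnRNP A2 than in control input, with a median of -1.03, so a level below input was common in the class. The 9 and the 8 kept their signs when any IgG or amyloid-β hnRNP A2 library was left out, although they had been picked with it included. Without IgG replicate 4 their median log2 fold changes were 3.04 and -2.47 and none was called, and with the replicate block and without that library all of them were called, with medians of 2.96 and -2.25. Without amyloid-β hnRNP A2 replicate 4, 2 of the 9 and 0 of the 8 were called, and without amyloid-β replicate 3, 6 and 1.

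Over all called genes the relation to control input differed between the directions. Of the 690 higher genes, 479 (69.4%) had a higher mean in the control hnRNP A2 libraries than in control input, against 8058 (52.7%) of all genes tested. Their median log2 ratio was 0.50, against 0.06 for all genes. Of the 463 lower genes, 243 (52.5%) lay above control input, with a median of 0.06. No library of the 6 enters these ratios, but control and amyloid-β hnRNP A2 libraries of the same number correlated at r = 0.990 to 0.992 across 15304 genes, so they are a description and not separate support.

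The IgG libraries were less alike than the hnRNP A2 libraries. Across genes, log2 levels correlated at r = 0.960 to 0.987 among the amyloid-β hnRNP A2 libraries, at r = 0.927 between IgG replicates 3 and 4, and at r = 0.750 and 0.754 between IgG replicate 2 and the others, where low counts add noise. Same-numbered hnRNP A2 and IgG libraries correlated at r = 0.767, 0.955 and 0.906 for numbers 2, 3 and 4. Genes are not independent replicates, and the depth of the libraries sets part of these values.

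Within same-numbered pairs, ratios to IgG were wider in replicate 4 than in replicate 3. Among the 8414 genes with at least 20 counts in both deeper IgG libraries, the log2 ratio of amyloid-β hnRNP A2 over IgG had an SD of 0.88 across genes in pair 4 and 0.62 in pair 3. The 436 higher genes in this class had a median log2 ratio of 0.91 in pair 3 and 1.41 in pair 4, and the 412 lower genes had -1.01 and -1.45. All of these called genes had the same sign in both pairs, as did 6690 of the 8414. The calls were made with these same libraries, so the shared sign of called genes is no separate support. Calls also moved with the order of these IgG libraries: IgG replicate 4 was above IgG replicate 3 for 84.9% of the lower genes and 17.2% of the higher genes, against 44.9% of all genes tested. The part of IgG replicate 4 in the single calls is given with the values without it.

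**Figure D4:**
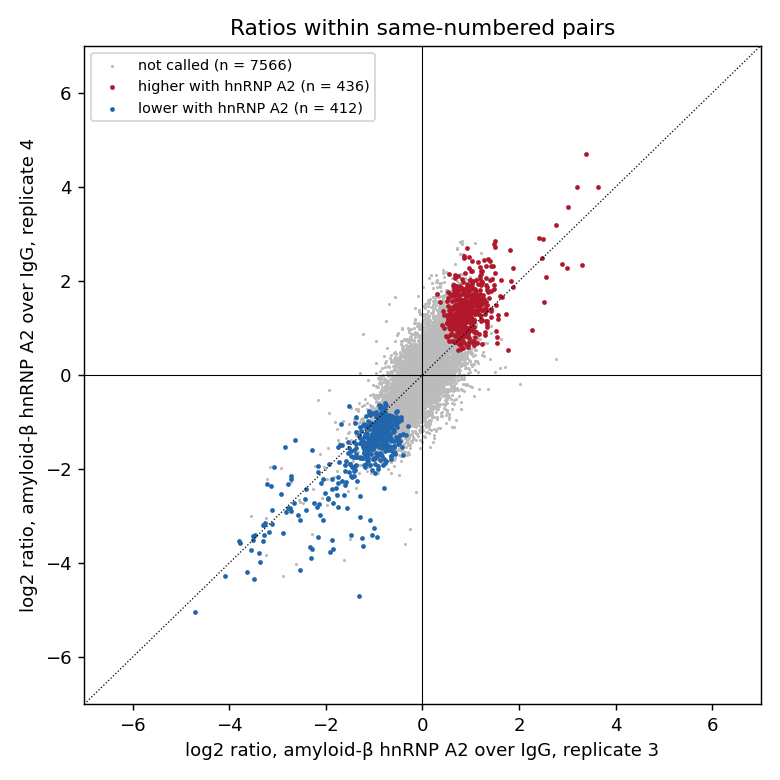
Log2 ratio of amyloid-β hnRNP A2 over IgG in replicate 4 (vertical) against that in replicate 3 (horizontal), 1 point per gene with at least 20 counts in IgG replicates 3 and 4, with the dotted line at equal ratios. Higher genes (red, 436) and lower genes (blue, 412) fall in opposite quadrants and mostly farther from 0 in replicate 4, where their medians are 1.41 and -1.45 against 0.91 and -1.01 in replicate 3.

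A pair of libraries not used to pick genes by their fold can be looked at by itself. The expression filter and the scaling still used all 9 libraries. Genes at least 2-fold higher with hnRNP A2 in pairs 3 and 4, with at least 20 counts seen or expected in IgG replicates 3 and 4, numbered 307. In pair 2 they held 4.23% of counts with hnRNP A2 and 0.953% with IgG (Wilson 95% interval 0.888% to 1.02%, from 776 counts), a ratio of 4.51 on the scaled levels. The 310 genes at least 2-fold lower in pairs 3 and 4 held 3.29% with hnRNP A2 and 18.2% with IgG (Wilson 95% interval 18.0% to 18.5%) in pair 2, which is 5.46 times more with IgG. Over all 9316 genes that met the count minimum the ratio was 1.02. Gene by gene, 282 of the 307 lay above IgG in pair 2, with a median log2 ratio of 2.25, and 241 of the 310 lay below IgG, with a median of -1.19, while 69 lay above it. Of the 9316 genes 6170 (66.2%) lay above IgG in this pair, with a median of 0.49, so the 282 of 307 and their median are to be read against these values. For the gene-by-gene ratios of left-out pairs, 0.5 CPM was added to each level, while 1 count in IgG replicate 2 is 11.3 CPM. A gene at 0 counts there that is detected with hnRNP A2 lies above IgG, with a ratio partly set by that addition.

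Leaving out pair 3 or pair 4 gave the same directions over fewer genes, since the shallow pair then took part in the choice. The 94 genes picked as higher without pair 3 were 2.35-fold higher in pair 3 by their summed level, with a median log2 ratio of 0.67 and 92 of them above IgG, while 432 of the 1012 genes that met the minimum were above IgG there. The 89 genes picked as lower were 2.35-fold lower by their summed level, with a median of -1.23 and 85 of them below IgG. Without pair 4, 23 genes were picked as higher and 56 as lower, and in pair 4 all 23 lay above IgG and all 56 below, while 413 of the 1012 genes that met the minimum lay above. Their median log2 ratios were 2.10 and -2.39. By summed level they were 11.7-fold higher and 6.66-fold lower, and ENSRNOG00000034234 alone gave 787669 of the 1420140 counts of the 23 with hnRNP A2. These are descriptions of single pairs of libraries, with no test, and intervals cover counting error only.

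How many genes passed the test depended on the model and on single libraries. The block raised the calls to 4963 genes, and all 690 and 463 genes were among them in the same direction. With only the 6 libraries of the comparison, edgeR called 151 higher (1.08%) and 168 lower genes (1.21%) of 13924 without the block, and 1571 (11.3%) and 1339 (9.62%) with it. The fit used here estimates the spread from 9 libraries and counts the control hnRNP A2 libraries as independent of the amyloid-β ones, which their correlation goes against.

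Once IgG replicate 4 was left out, 0 genes passed edgeR's test, although 2633 of 15616 had an unadjusted p under 0.05. DESeq2 without that library called 38 higher and 100 lower genes, and edgeR with the replicate block called 2024 and 1571. Without amyloid-β hnRNP A2 replicate 4 edgeR called 2 higher and 1 lower gene, without amyloid-β replicate 3 it called 122 and 57, and without amyloid-β replicate 2 436 and 303. Leaving out control hnRNP A2 replicate 3 or 4 gave 422 and 306, and 178 and 135. Without IgG replicate 3 the count rose to 1330 higher and 614 lower. The shallow IgG replicate 2 decided less, with 865 higher and 626 lower genes without it, among them 653 of the 690 and 415 of the 463. In each of these fits all 1153 genes kept their sign, although they had been picked with the library included. Their median absolute log2 fold change was 1.26 with all libraries and 1.11 without IgG replicate 4.

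**Figure D5:**
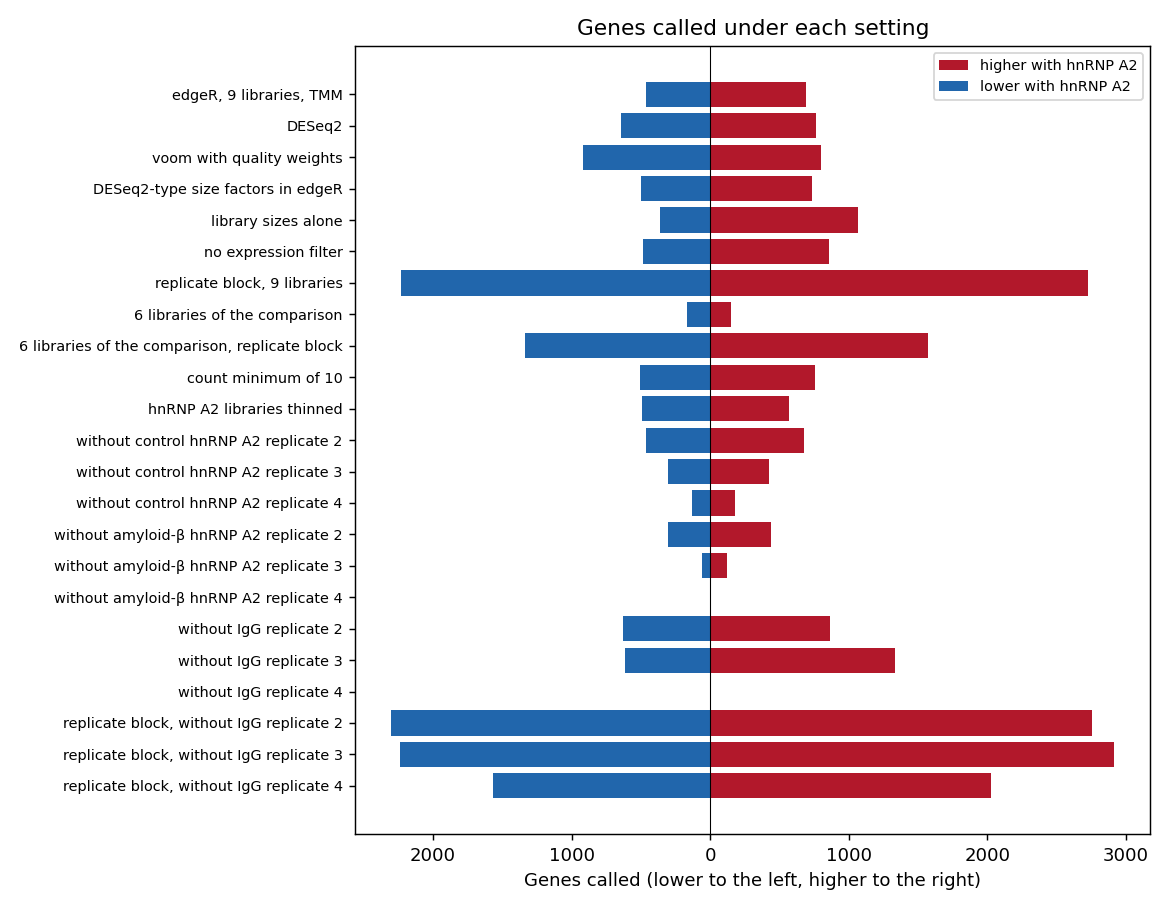
Number of genes called lower (blue, to the left) and higher (red, to the right) with amyloid-β hnRNP A2 against IgG, in each of 23 fits. The top bar is the fit described here, with 690 higher and 463 lower. The bars without amyloid-β hnRNP A2 replicate 4 and without IgG replicate 4 are too short to see or empty, and those with the replicate block are the longest.

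The precision of single genes differed with their level. The 95% interval of the log2 fold change stayed inside a 2-fold change in either direction for 28.2% of the genes tested (4310). Above 100 CPM with hnRNP A2 this held for 44.8% of 2259 genes, and from 33.8 to 100 CPM for 48.2% of 3178 genes. From 10 to 33.8 CPM it held for 38.7% of 3680 genes. From 1 to 10 CPM it held for 8.18% of 4180 genes, and under 1 CPM for 2 of 2007. At every level the interval therefore did not exclude a 2-fold change for most genes. With the hnRNP A2 libraries thinned to 2996350 counts, the mean depth of IgG replicates 3 and 4, edgeR called 565 higher and 491 lower genes of 11805 tested.

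Whether a fold over IgG differed between the treatments was tested as amyloid-β against control hnRNP A2, since the IgG libraries are common to both. No gene passed: of 15304, edgeR gave 0 calls (0%) and 37 genes with an unadjusted p under 0.05. DESeq2 gave 0 calls and 2 such genes, voom 0 and 196, and edgeR with the block 0 and 277. Each of these shares of genes lies under 0.05, the share expected where nothing differs. These tests were therefore conservative, and their 0 calls do not show that the treatments are alike. Same-numbered amyloid-β and control hnRNP A2 libraries deviated from their group means together (r = 0.79, 0.68 and 0.53 for numbers 2, 3 and 4). Fits without the block leave this pairing out. Of all 15304 genes, 10807 (70.6%) had a 95% interval of the treatment difference within 2-fold, and 13148 (85.9%) with the block. Of the 1153 genes called against IgG these were 1025 (88.9%), and 1123 (97.4%) with the block. For the others a difference of that size was not excluded. The 4 named genes had log2 fold changes over IgG of 3.73, 3.42, -4.51 and -4.55 in control cells, in the order in which they are described, against 3.86, 3.68, -4.55 and -4.54 in amyloid-β-treated cells, and both comparisons use the same IgG libraries. For ENSRNOG00000034234 the treatment difference was 0.13 (95% interval -0.73 to 0.99) and for ENSRNOG00000030700 it was 0.26 (95% interval -0.60 to 1.13).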

How the data were processed

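The deposited files hold raw counts, whole numbers of reads per gene identifier, as the authors left them before any scaling. The submitters' processing notes name STAR 2.7.1, HTSeq, R 4.2.2 and DESeq2 with no role. Build, annotation and strand setting are not stated in the labels, so genes that overlap, lie antisense or have near copies may share reads. The 5 summary rows, 65.5% to 91.4% of records in the 9 immunoprecipitated libraries, were left out. The RefSeq table for GRCr8 gave an Ensembl identifier in 0 of 47357 rows, so the 29 gene lists were not analysed here.

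Tests used edgeR 4.0.16 in R 4.3.3 on all 9 immunoprecipitated libraries, with a mean per group, the default expression filter, TMM scaling, the quasi-likelihood test and Benjamini-Hochberg adjusted p at 0.05. An SE is the log2 fold change over the square root of F. DESeq2 1.42.0, voom of limma 3.58.1, other scalings and filters, the replicate block, the 6 libraries alone, thinning and each library left out served as alternatives. Named genes are the 2 largest fold changes per direction among called genes without overlap and with at least 10 CPM in the higher group (for lower genes also at least 10 counts in IgG replicates 3 and 4). The comparison, lists and rules were chosen with earlier results of these data known.

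Same-numbered amyloid-β hnRNP A2 and IgG libraries deviated from their group means together (r = 0.22, 0.24 and 0.12 for numbers 2, 3 and 4), and differently numbered ones at -0.27 to 0.14. Every same-numbered pair passed 0.1, the rule for pairing, so counts with the number as a block are printed beside those of the main test, which has no block. Amyloid-β hnRNP A2 replicate 4 and IgG replicate 3 also passed it (r = 0.14), above the same-numbered pair 4. For number 4 the rule thus does not set the same-numbered pair apart. No libraries of a group agreed within counting noise (chi-square over its degrees of freedom at least 4.05), so none was taken for a library deposited again. That they are biological replicates rests on the design text.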

Additional observations from a re-analysis of the deposited data

How the results depend on the processing

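Against IgG, the count of genes stayed within 1.5 times of 690 higher and 463 lower with DESeq2, DESeq2-type size factors, no expression filter, a count minimum of 10, thinning and a minimum change of 2-fold (560 and 332). With voom 921 genes were lower beside 796 higher, and with library sizes alone 1064 were higher beside 362 lower, so the share of higher genes among the calls went from 59.8% to 46.4% and 74.6%, with a shift of the median of all genes to -0.09 and 0.18. With the replicate block edgeR called 2728 higher and 2235 lower, with the 6 libraries alone 151 and 168, and with those and the replicate block 1571 and 1339. With 1 library left out in turn, the fit of 9 libraries called 0 to 1330 higher and 0 to 626 lower genes. The remaining fits were chosen after seeing the data. With the replicate block and without IgG replicate 2, 3 or 4, there were 2758, 2916 and 2024 higher and 2300, 2239 and 1571 lower genes. DESeq2 without those libraries gave 1349, 1095 and 38 higher and 1274, 768 and 100 lower. The 6 libraries alone gave 0 to 647 higher and 0 to 577 lower genes with each left out, such as 27 and 47 without amyloid-β hnRNP A2 replicate 3, 0 and 1 without amyloid-β replicate 4, 122 and 153 without IgG replicate 2 and 0 and 0 without IgG replicate 4. The cause of these shifts was not tested. The 1153 genes, where fitted, had the same sign in every one of these fits. These fits reuse most of the libraries that picked the genes, so the shared sign is no separate support. The 4 named genes were called under each tool, scaling, filter and block run on all libraries of a fit, except that ENSRNOG00000058179 was not fitted after thinning. The treatment difference remained at 0 genes under all of its alternatives. The difference in genes at 80000 counts, 440 on average, was 346 to 528 with a library left out and 452 at 40000 counts. The share in the 10 most abundant genes differed by -3.42 points, and by -5.45 to -0.95 with a library left out, the latter without IgG replicate 2. The share outside features differed by 2.36 points, and by 0.64 to 3.84, the former without amyloid-β replicate 4. Depth limits single genes: IgG replicate 2 reaches 3 counts at 33.8 CPM. The p-values measure only the spread between these libraries.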
